A study of Mus musculus with 13 samples.

Results

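The genes described here are 33 transcripts that hepatocytes make in quantity: blood proteins that the liver secretes, together with 4 enzymes that stay inside the cell. They were picked by name from the deposited gene table, with their levels already known to differ between the undisturbed-sleep libraries, and make up 33 of its 54532 genes. RNA came from inguinal white adipose tissue, the fat pad under the skin of the groin, of single mice that had fasted for 12 h. Mice in SC_ConD slept normally and ate chow (3 libraries), mice in SF_ConD had fragmented sleep and ate chow (5 libraries), and mice in SF_HPD had fragmented sleep and ate a diet with 50% of its calories as protein, 12% as fat and 38% as carbohydrate (5 libraries). Strain, sex and age are not given in the labels. Values are FPKM, fragments scaled to gene length and to sequencing depth, as the authors deposited them, and the p-values given here measure the spread between these mice.

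Hepatocytes supply most proteins of blood plasma, including albumin, the apolipoproteins of lipoprotein particles, the clotting factors, the protease inhibitors and much of complement. Their genes are switched on together by a small set of liver transcription factors, among them HNF1, HNF4, FOXA and C/EBP proteins. White fat is not known as a main site of these transcripts, although adipocytes make some of them, Cyp2e1 among them.

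The 3 undisturbed-sleep libraries did not carry these genes evenly. SC_ConD 2 had the highest level of 13 libraries for 33 of 33 genes, and SC_ConD 3 had the next highest for 33 of 33. SC_ConD 1 was the lowest of its group for all 33, and lay within the range of the 10 sleep-fragmented libraries for all 33. For 33 genes SC_ConD 1 was also below SF_ConD 2, and for 31 it was below SF_ConD 1. Over the 33 genes the median ratio of SC_ConD 2 to SC_ConD 1 was 113, from 4.42 for Cyp2e1 to 376 for Fga, and that of SC_ConD 3 to SC_ConD 1 was 54.6, from 3.68 for Cyp2e1 to 204 for Apob. SC_ConD 2 and SC_ConD 3 differed much less from each other, with a median ratio of 2.14, from 1.20 for Cyp2e1 to 3.70 for Apoa2. The size of the gap to SC_ConD 1 depends on the scaling, because FPKM sums differ between libraries: after rescaling to TPM, which gives each library the same total, the median ratio of highest to lowest SC_ConD library was 40.7. These values chose the genes, so they are a description and carry no test.

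**Figure D1:**
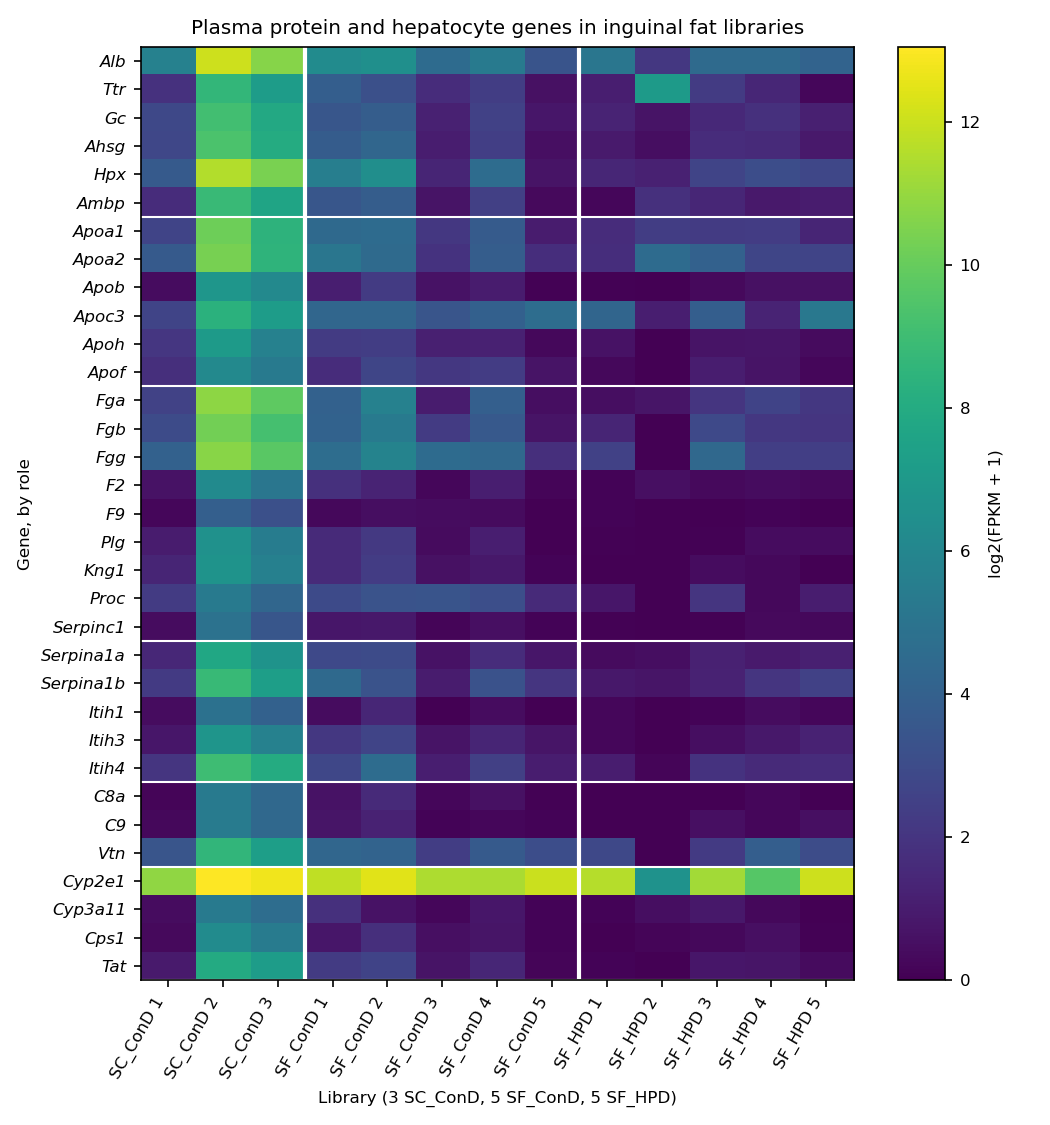
Level of each of the 33 genes (rows, grouped by role) in each of the 13 libraries (columns), as log2(FPKM + 1); white lines separate groups of libraries and roles. SC_ConD 2 and SC_ConD 3 rank highest for 33 of 33 genes, by little for Ttr and Cyp2e1, SC_ConD 1 lies among the sleep-fragmented libraries, and Cyp2e1 is high in 12 of the 13 libraries, with its lowest level of 100.6 FPKM in SF_HPD 2.

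Reads showed the same gap. Whole reads could be recovered from the FPKM values, and totals ran from 14815592 to 18303302 reads per library. The 33 genes took 0.479% of the reads of SC_ConD 1 (exact 95% interval 0.476% to 0.482%), 3.63% of SC_ConD 2 (3.62% to 3.64%) and 2.61% of SC_ConD 3 (2.60% to 2.62%). In SC_ConD 1 and the 10 sleep-fragmented libraries, Cyp2e1 alone held the larger part of these reads. Without it, the other 32 genes took 0.0372% of SC_ConD 1 (0.0362% to 0.0382%), 2.56% of SC_ConD 2 (2.55% to 2.57%) and 1.46% of SC_ConD 3 (1.45% to 1.47%), which is 68.8 and 39.3 times the share in SC_ConD 1. In SF_ConD 1 to 5 they took 0.0663%, 0.116%, 0.0238%, 0.0513% and 0.00732%, and in SF_HPD 1 to 5 they took 0.0186%, 0.0102%, 0.0238%, 0.0222% and 0.0120%. The share in SC_ConD 3 was 12.6 times that in SF_ConD 2, the highest sleep-fragmented library. As group values the share was 1.35% ± 1.26 (SD, n = 3) in SC_ConD, 0.0530% ± 0.0422 (SD, n = 5) in SF_ConD and 0.0174% ± 0.00606 (SD, n = 5) in SF_HPD, with an SD near the mean in SC_ConD and SF_ConD. The intervals cover counting error only, since reads without molecular identifiers are not independent molecules. In bulk tissue, fewer cells of a type and less RNA per cell cannot be told apart.

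The 33 genes lie on 17 chromosomes, and 10 of them have another of the set within 100000 bases: the Fgg, Fga and Fgb cluster on chromosome 3, Apoa1 and Apoc3 on chromosome 9, Serpina1b and Serpina1a on chromosome 12, and Itih4, Itih3 and Itih1 on chromosome 14. The promoters of the 33 genes were read for letters of sites that liver factors are known to bind. A RefSeq promoter on GRCm38.p6 was found for 26 of the 33, and the 250 bases before the start were searched on both strands. GTTAAT, one arm of the HNF1 site, occurred in 9 of 26 (34.6%), and in 7.49% of 27025 genes with a promoter in the table. The C/EBP letters TTGCNNAA occurred in 10 of 26 (38.5%) and in 10.8% of all. TATAAA occurred in 5 of 26 (19.2%) and in 14.3% of all, the HNF4 letters CAAAGTCCA in 1 of 26 (Cyp3a11, 3.85%) and in 0.451% of all, and the full 2-armed HNF1 site in 0 of 26 and in 0.0111% of all. TTGCNNAA and GTTAAT were counted separately, and a promoter may hold both. A match describes letters and shows no binding. The part of these letters in the differences between libraries was not tested.

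The 9 promoters with GTTAAT were those of Alb, C8a, Fga, Fgb, Gc, Itih1, Serpina1a, Serpina1b and Vtn. The match lay 16 to 112 bases before the RefSeq start, which can differ from the gene's start in the deposited table. The 120 bases before the RefSeq start ended 27 bases short of the listed gene for Alb and 57 for Serpina1a. For Fga, Serpina1b and Vtn they overlapped the listed gene. Of the 9, 5 are printed to show how near the RefSeq start the letters lie. Each is the 120 bases before that start on the gene's own strand, with GTTAAT or its reverse complement in capitals. They are Alb at chr5:90460750-90460869 (plus strand), Gc at chr5:89457899-89458018 (minus), Fgb at chr3:83049864-83049983 (minus), Serpina1a at chr12:103863620-103863739 (minus) and Itih1 at chr14:30943290-30943409 (minus). Fgg at chr3:83007604-83007723 (plus), the neighbour of Fgb, is shown as a promoter of the same gene cluster without the letters. The same stretch of Serpina1b matched that of Serpina1a at 111 of 115 aligned bases (96.5%).
Alb: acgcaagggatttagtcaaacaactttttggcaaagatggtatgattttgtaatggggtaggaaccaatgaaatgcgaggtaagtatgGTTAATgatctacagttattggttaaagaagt
Gc: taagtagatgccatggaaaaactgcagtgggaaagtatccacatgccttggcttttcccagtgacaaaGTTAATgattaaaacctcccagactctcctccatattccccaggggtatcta
Fgb: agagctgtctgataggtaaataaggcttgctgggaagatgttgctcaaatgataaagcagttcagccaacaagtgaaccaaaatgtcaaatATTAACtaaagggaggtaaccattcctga
Serpina1a: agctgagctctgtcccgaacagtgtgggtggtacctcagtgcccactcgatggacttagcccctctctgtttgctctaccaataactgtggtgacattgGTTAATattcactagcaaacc
Itih1: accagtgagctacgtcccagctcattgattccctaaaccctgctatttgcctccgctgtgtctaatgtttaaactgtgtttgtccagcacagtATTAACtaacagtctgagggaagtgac
Fgg: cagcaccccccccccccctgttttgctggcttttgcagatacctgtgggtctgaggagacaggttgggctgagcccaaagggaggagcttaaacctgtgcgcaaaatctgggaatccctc

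Carriers had the highest summed level of the secreted roles in SC_ConD 2. Albumin, the main protein of plasma (Alb, ENSMUSG00000029368, chromosome 5, 90460897 to 90476602 on GRCm38), was at 52.2, 4223 and 1614 FPKM in SC_ConD 1, 2 and 3. It was at 76.6, 88.3, 23.0, 40.1 and 9.32 FPKM in SF_ConD 1 to 5 and at 33.7, 3.30, 22.2, 21.6 and 16.8 FPKM in SF_HPD 1 to 5. SC_ConD 2 and 3 stood above all other libraries for Alb, and SC_ConD 1 lay between SF_ConD 4 and SF_ConD 1. The group value of 1963 ± 2107 FPKM (SD, n = 3) had an SD above its mean. Alb was the least uneven carrier within SC_ConD, with a ratio of highest to lowest library of 80.9. Hemopexin, which binds free heme (Hpx, ENSMUSG00000030895, chromosome 7, 105591613 to 105600137), was at 12.0, 2965 and 1388 FPKM in SC_ConD 1, 2 and 3. It was at 46.3, 86.8, 1.57, 23.3 and 0.638 FPKM in SF_ConD 1 to 5 and at 1.62, 1.31, 5.45, 7.62 and 5.85 FPKM in SF_HPD 1 to 5. Hpx therefore spread more widely than Alb within SF_ConD, where SF_ConD 1, 2 and 4 were high and SF_ConD 3 and 5 low. Gc, the vitamin D binding protein, was at 6.17, 541 and 234 FPKM in SC_ConD 1, 2 and 3. Ahsg, the fetuin that keeps calcium phosphate in solution, was at 5.81, 658 and 258 FPKM, and Ambp, the precursor of alpha-1-microglobulin and bikunin, at 2.11, 465 and 196 FPKM. Ttr, which carries thyroid hormone and the retinol binding protein, was at 2.68, 395 and 148 FPKM. Outside SC_ConD, Ttr reached 138.8 FPKM in SF_HPD 2 (1465 reads) against at most 13.9 FPKM in the other 9 sleep-fragmented libraries. In that library Alb was at its lowest, 3.30 FPKM, so that the ratio of Ttr to Alb was 42.0 there and 0.00985 to 0.182 in the other 12 libraries.

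Apolipoproteins showed the same order in SC_ConD with some departures elsewhere. Apoa2, a protein of high-density lipoprotein (ENSMUSG00000005681, chromosome 1, 171225054 to 171226379), was at 11.9, 1317 and 356 FPKM in SC_ConD 1, 2 and 3, at 33.7, 22.1, 2.82, 13.6 and 2.27 FPKM in SF_ConD 1 to 5 and at 2.27, 22.6, 15.4, 5.72 and 5.45 FPKM in SF_HPD 1 to 5. The sleep-fragmented groups overlapped for Apoa2, and SF_HPD 2 was near SF_ConD 2. Apoa1, the main protein of high-density lipoprotein (ENSMUSG00000032083, chromosome 9, 46228580 to 46230466), was at 5.33, 1168 and 343 FPKM in SC_ConD, at 21.2, 22.4, 3.34, 12.5 and 0.985 FPKM in SF_ConD and at 2.16, 4.21, 3.73, 3.94 and 1.55 FPKM in SF_HPD, each in library order. SF_ConD 1, 2 and 4 lay above all SF_HPD libraries for Apoa1, and SF_ConD 5 lay below them. Apob, the backbone protein of very-low-density lipoprotein, was at 0.345, 117 and 70.3 FPKM in SC_ConD 1, 2 and 3. Apoh, the phospholipid-binding beta-2-glycoprotein, was at 3.13, 138 and 51.5 FPKM. Apof, an inhibitor of lipid transfer between lipoproteins, was at 2.41, 70.6 and 41.1 FPKM, the smallest ratio of highest to lowest SC_ConD library among apolipoproteins (29.4). Apoc3, which slows the clearance of triglyceride-rich lipoproteins, was at 5.44, 321 and 150 FPKM. In the sleep-fragmented libraries Apoc3 did not follow its neighbour Apoa1, 2467 bases away: it was at 23.9 FPKM in SF_ConD 5 and 36.2 FPKM in SF_HPD 5, where Apoa1 was at 0.985 and 1.55 FPKM. The ratio of Apoc3 to Apoa1 was 0.275 and 0.436 in SC_ConD 2 and 3, and 24.3 and 23.4 in those 2 libraries.

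Among the 9 clotting genes, the fibrinogen chains were the most abundant. Fga, the alpha chain (ENSMUSG00000028001, chromosome 3, 83026076 to 83033627), was at 4.91, 1847 and 884 FPKM in SC_ConD 1, 2 and 3, at 15.3, 53.2, 0.972, 14.7 and 0.405 FPKM in SF_ConD 1 to 5 and at 0.404, 0.652, 3.01, 5.14 and 3.28 FPKM in SF_HPD 1 to 5. Its ratio of SC_ConD 2 to SC_ConD 1 was the widest of the 33. Fgg, the gamma chain (ENSMUSG00000033860, chromosome 3, 83007724 to 83015049), was at 15.3, 1725 and 835 FPKM in SC_ConD, at 24.0, 55.3, 22.7, 20.5 and 2.33 FPKM in SF_ConD and at 4.81, 0, 20.002, 4.32 and 4.43 FPKM in SF_HPD, in library order. Fgb, the beta chain, was at 6.79, 1235 and 582 FPKM in SC_ConD 1, 2 and 3. The gamma and alpha chains were in near-equal amounts in SC_ConD 2 and 3 (ratio of Fgg to Fga 0.934 and 0.945), and in SF_ConD 2 (1.04) and SF_HPD 4 (0.840). Fgg exceeded Fga 23.3-fold in SF_ConD 3 (908 and 56 reads), 11.9-fold in SF_HPD 1 (215 and 26 reads) and 6.64-fold in SF_HPD 3 (789 and 171 reads). Fgg overlaps the noncoding gene Gm30097 on the other strand, and the labels do not say whether counting used strand, so reads of these genes cannot be told apart.

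The remaining clotting genes were lower. F2, prothrombin, was at 0.555, 74.5 and 33.8 FPKM in SC_ConD 1, 2 and 3. Plg, the precursor of the clot-dissolving enzyme plasmin, was at 0.959, 94.9 and 43.1 FPKM, and Kng1, the kininogen that releases bradykinin, at 1.53, 104 and 49.9 FPKM. F9, the factor missing in haemophilia B, was at 0.152, 14.7 and 8.17 FPKM, and Serpinc1, antithrombin, at 0.347, 29.6 and 10.1 FPKM. F9 and Serpinc1 reached an FPKM of 1 in SC_ConD 2 and 3 alone, and were the 2 genes that the filter on low values left out of the tests; the other 31 passed it with SC_ConD 2 and 3 among their libraries. Proc, the zymogen of the anticoagulant protein C (ENSMUSG00000024386), was at 3.75, 40.8 and 18.6 FPKM in SC_ConD 1, 2 and 3, the least uneven clotting gene with a ratio of highest to lowest of 10.9. It was at 6.75, 9.07, 9.34, 7.77 and 1.94 FPKM in SF_ConD 1 to 5 and at 0.718, 0, 3.08, 0.222 and 1.03 FPKM in SF_HPD 1 to 5. SF_ConD 1 to 4 lay above all SF_HPD libraries for Proc, and SF_ConD 5 lay below SF_HPD 3.

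Protease inhibitors and inter-alpha-inhibitor chains followed the carriers. Itih4 (ENSMUSG00000021922, chromosome 14, 30886476 to 30902353), an acute-phase protein of the inter-alpha-inhibitor family, was at 2.97, 506 and 261 FPKM in SC_ConD 1, 2 and 3, at 5.82, 23.6, 1.18, 4.62 and 1.04 FPKM in SF_ConD 1 to 5 and at 1.09, 0.125, 2.78, 1.95 and 2.10 FPKM in SF_HPD 1 to 5. SF_ConD 2 stood out among the sleep-fragmented libraries for Itih4. Serpina1b (ENSMUSG00000071178, chromosome 12, 103728156 to 103830373), an alpha-1-antitrypsin that blocks neutrophil elastase, was at 3.69, 443 and 158 FPKM in SC_ConD, at 20.8, 9.07, 0.995, 8.81 and 3.03 FPKM in SF_ConD and at 0.776, 0.670, 1.41, 3.0 and 4.68 FPKM in SF_HPD, in library order. Here SF_ConD 1 was highest among the sleep-fragmented libraries. Its close copy Serpina1a was at 1.78, 221 and 103 FPKM in SC_ConD 1, 2 and 3. Mouse alpha-1-antitrypsin genes are near-identical, and the table's Serpina1b also spans Serpina1d, so how reads were split between these copies is uncertain. Itih3 and Itih1, heavy chains that attach to hyaluronan, were at 0.734, 112 and 51.6 FPKM and at 0.342, 28.3 and 15.4 FPKM. Itih1 was the least uneven of the role, with a ratio of highest to lowest SC_ConD library of 82.8.

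Complement and vitronectin genes were the least abundant secreted group apart from Vtn. Vtn, vitronectin, an adhesion protein that also restrains the complement pore (ENSMUSG00000017344, chromosome 11, 78499091 to 78502324), was at 9.85, 383 and 157 FPKM in SC_ConD 1, 2 and 3, at 18.5, 17.0, 4.12, 12.0 and 7.63 FPKM in SF_ConD 1 to 5 and at 6.04, 0, 3.61, 14.02 and 7.11 FPKM in SF_HPD 1 to 5. The sleep-fragmented groups overlapped, and the ratio of highest to lowest SC_ConD library was 38.9. C9, the subunit that forms the ring of the complement pore (ENSMUSG00000022149, chromosome 15, 6445327 to 6498751), was at 0.209, 42.0 and 20.5 FPKM in SC_ConD 1, 2 and 3 and at 1.42 FPKM or less in every sleep-fragmented library. C8a, a subunit that joins the pore before C9, was at 0.147, 41.2 and 20.3 FPKM, with 1.93 FPKM as its highest sleep-fragmented value, in SF_ConD 2.

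Of the 4 intracellular enzymes, 1 departed from all other genes. Cyp2e1, the cytochrome P450 that oxidises ethanol and acetone (ENSMUSG00000025479, chromosome 7, 140763739 to 140774987), was at 1919, 8486 and 7059 FPKM in SC_ConD 1, 2 and 3. It was at 3618, 5705, 2788, 2661 and 4109 FPKM in SF_ConD 1 to 5 and at 3149, 100.6, 2428, 776 and 4264 FPKM in SF_HPD 1 to 5. SC_ConD 2 and 3 were above the rest by little, with SC_ConD 3 at 1.24 times SF_ConD 2. Over the 13 libraries, log2(FPKM + 1) of Cyp2e1 correlated with the mean of 10 adipocyte markers at r = 0.907 and with the mean of the other 32 genes at r = 0.542. The first value was 0.622 over the 12 libraries without SF_HPD 2, and libraries of 1 tissue with differing FPKM sums share their scaling. Tat, which starts the breakdown of tyrosine (ENSMUSG00000001670, chromosome 8, 109990437 to 109999803), was at 0.913, 253 and 146 FPKM in SC_ConD 1, 2 and 3, at 3.79, 5.10, 0.630, 1.69 and 0.145 FPKM in SF_ConD 1 to 5 and at 0.0779, 0, 0.706, 0.699 and 0.294 FPKM in SF_HPD 1 to 5. For Tat the lower of the 2 high libraries, SC_ConD 3, was 28.6 times the highest sleep-fragmented library, the widest such gap of the 33, while for Ttr it was 1.07 times. Cps1, the first enzyme of the urea cycle, was at 0.256, 78.3 and 42.9 FPKM in SC_ConD 1, 2 and 3, and Cyp3a11, which oxidises many drugs, at 0.373, 40.04 and 24.6 FPKM.

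Whether the libraries carried the genes in the same proportions was examined by setting each gene against its level in SC_ConD 2. In SC_ConD 3 the genes stood at a median of 46.7% of SC_ConD 2, from 27.1% to 83.2%, and all 33 lay within 2-fold of that median. Across the 33 genes the log levels of SC_ConD 2 and SC_ConD 3 correlated at r = 0.991, a description over genes, which are not independent replicates. In SC_ConD 1 the median was 0.883%, 22 of 33 genes lay within 2-fold of it, and Cyp2e1 was at 22.6%. SF_ConD 1 to 5 had medians of 1.97%, 3.02%, 0.418%, 1.06% and 0.152%, with 25, 29, 19, 26 and 16 genes within 2-fold. SF_HPD 1 to 5 had medians of 0.175%, 0.0248%, 0.372%, 0.440% and 0.257%, with 15, 3, 17, 28 and 16 genes within 2-fold. By that count, SF_ConD 2 and SF_HPD 4 were outside SC_ConD the nearest to the proportions of SC_ConD 2. By the correlation of log levels SF_ConD 2 (r = 0.913) and SF_ConD 1 (0.901) came before SF_HPD 4 (0.888). Without Cyp2e1 the correlations were 0.939, 0.914 and 0.918, so that SF_HPD 4 came before SF_ConD 1. SF_HPD 2 was the farthest by the count and by the correlation over the 33 genes (r = 0.617), and Ttr stood at 35.1% there. Counts at this level are small: 16 of the 33 genes were at 0 in SF_HPD 2, 4 in SF_HPD 5, 2 in SF_HPD 3 and 1 each in SF_ConD 3 and SF_ConD 5. Only Alb, Apoa2, Apoc3 and Cyp2e1 reached an FPKM of 1 in all 13 libraries.

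**Figure D2:**
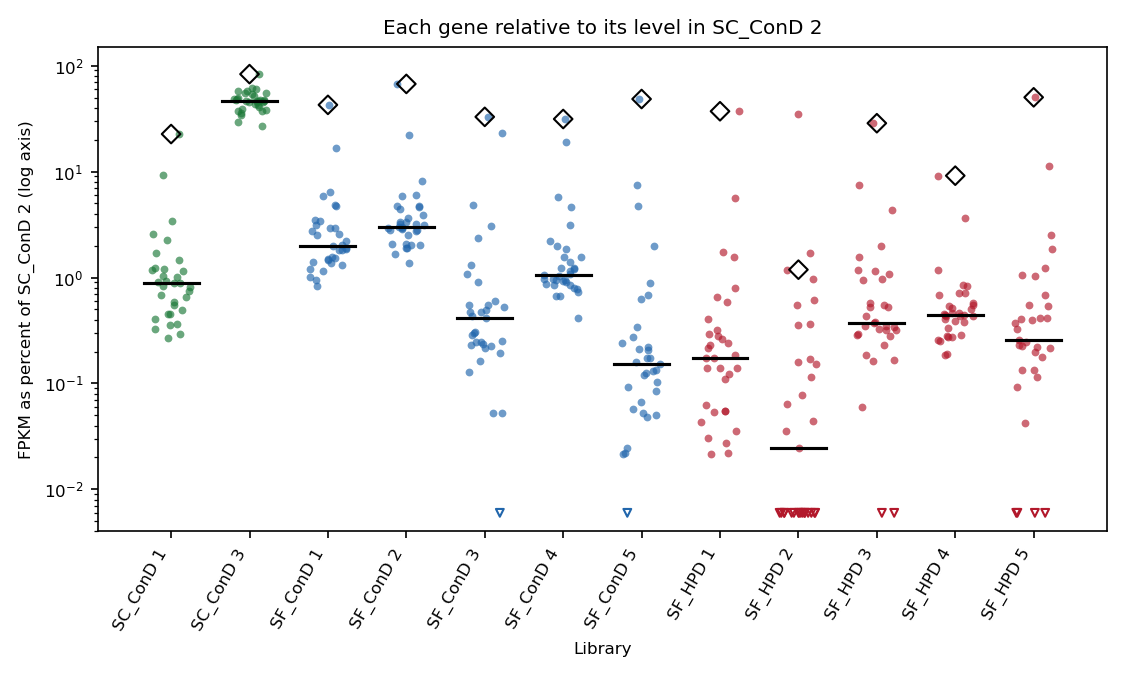
Level of each gene as a percent of its level in SC_ConD 2 (log axis) in the other 12 libraries; each point is 1 of 33 genes, bars are medians, diamonds mark Cyp2e1, and open triangles at the bottom mark genes at 0. SC_ConD 3 forms a tight cloud around 46.7%, while the medians of the other 11 libraries lie at 3.02% or lower and their points scatter more widely.

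Within the sleep-fragmented chow group the genes were uneven too. SF_ConD 2 held the highest SF_ConD value for 25 genes, SF_ConD 1 for 6, SF_ConD 3 for Proc and SF_ConD 5 for Apoc3. Over the 10 sleep-fragmented libraries the highest value fell in SF_ConD 1 or 2 for 30 of 33 genes, the exceptions being Proc (SF_ConD 3), Ttr (SF_HPD 2) and Apoc3 (SF_HPD 5). In SF_HPD the highest value was in SF_HPD 4 for 12 genes, SF_HPD 3 for 11, SF_HPD 2 for 5, SF_HPD 5 for 4 and SF_HPD 1 for 1. Over all 13 libraries 29 of 33 genes correlated with the mean of the other members at r of at least 0.9, a value that SC_ConD 2 and 3 dominate. Over the 11 libraries without them, 25 of 33 still reached 0.8, from 0.987 for Tat down to 0.0434 for Ttr, with Apoc3 at 0.281, Cyp2e1 at 0.451 and Apoa2 at 0.594. These correlations share library scaling and are given without a test.

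Gene length was 1 property that went with the remaining difference between SC_ConD 2 and SC_ConD 3. The ratio of SC_ConD 2 to SC_ConD 3 fell with the gene length of the table (Spearman rho -0.395 over 33 genes, -0.432 without Cyp2e1). The 17 shorter genes had a median ratio of 2.31 and the 16 longer ones 2.07. Apoa2 and Apoa1, short genes, had ratios of 3.70 and 3.41, and Apob, the longest, 1.66. Other genes went against the trend: Serpinc1, the next longest at 8546 bases, had a ratio of 2.92, and the short genes Apof (1258 bases) and Apoc3 (1014 bases) had 1.72 and 2.15. The relation was not particular to these genes: rho was -0.399 over 69 other liver genes and -0.266 over 5446 genes of at least 5 FPKM in both libraries, whose median ratio was 1.22. These are descriptions across genes of 2 libraries, and their part in the ratios of single genes was not tested.

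**Figure D3:**
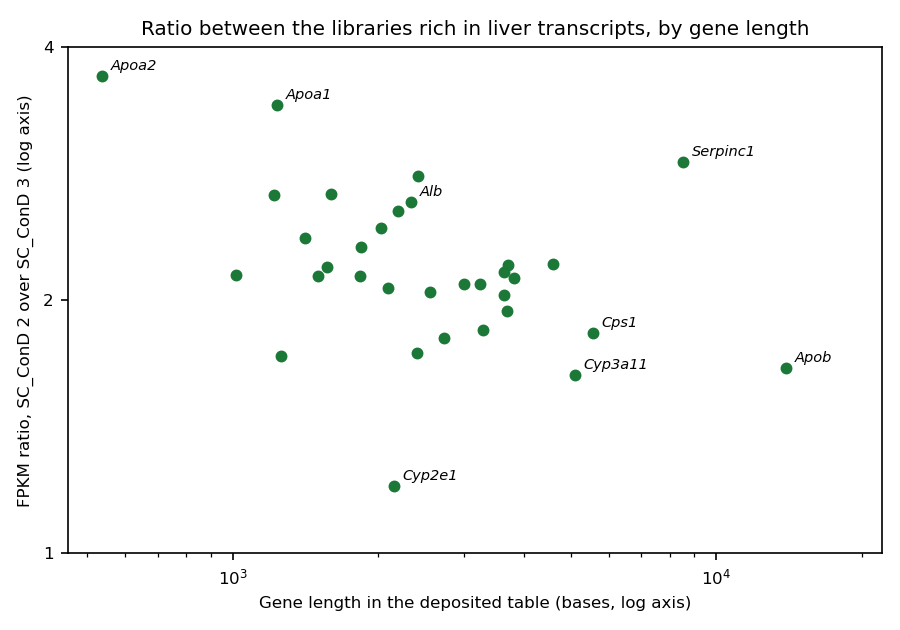
Ratio of FPKM in SC_ConD 2 to SC_ConD 3 against gene length in the deposited table, both on log axes, for the 33 genes, with 8 named. Apoa2 (3.70) lies highest and the longest, Apob (1.66), lower, while Serpinc1 (2.92) is long and high; Cyp2e1 (1.20) is below the rest.

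Other genes of hepatocytes showed the same order of libraries. Of 47 further plasma protein genes, 42 were higher in both SC_ConD 2 and SC_ConD 3 than in all other libraries, as were 32 of 35 further hepatocyte enzymes and transporters and 8 of 13 hepatocyte transcription factors. Over all genes kept this held for 710 of 14421 (4.92%). The list counts were not filtered: 37 of the 47, 21 of the 35 and 3 of the 13 passed the filter on low values. That filter leaves out genes that reach an FPKM of 1 in SC_ConD 2 and 3 alone, so the list counts and this percent cover unlike sets. These lists were chosen with earlier results of these data known. Haptoglobin (Hp), which binds free haemoglobin and is also made by adipocytes, was at 287, 3725 and 1768 FPKM in SC_ConD 1, 2 and 3 and at up to 2431 FPKM in the sleep-fragmented libraries. Rbp4, the retinol carrier and another adipocyte product, was at 118, 3254 and 650 FPKM. Hnf4a, a factor that hepatocytes need, was at 0.147, 33.1 and 12.5 FPKM in SC_ConD 1, 2 and 3 and at 0.833 FPKM or less in the sleep-fragmented libraries. Foxa1 ran the other way, at 35.2, 1.75 and 6.95 FPKM. Apoc2 was listed at 0 in all 13 libraries.

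Markers of other liver cells were mostly low or highest in other libraries. Within SC_ConD, 4 of 5 Kupffer cell markers still ran SC_ConD 2, 3, 1 as the 33 genes did. Their mean log2(FPKM + 1) was 0.372, 1.68 and 1.18 in SC_ConD 1, 2 and 3. That order held for 1 of 6 sinusoidal endothelium, 0 of 5 stellate cell and 1 of 5 cholangiocyte markers. Of 5 Kupffer cell markers, Clec4f, which is restricted to those liver macrophages, was at 0.432, 3.22 and 2.06 FPKM in SC_ConD 1, 2 and 3 and at 0.15 FPKM or less in the other 10. Marco, Timd4 and Cd5l, which macrophages of other tissues also express, were highest in SF_ConD 1 (63.7, 88.5 and 46.7 FPKM) or SF_ConD 4 (77.1 FPKM for Marco). Both SC_ConD 2 and 3 exceeded the rest for 1 of 6 sinusoidal endothelium markers, 0 of 5 stellate cell markers and 1 of 5 cholangiocyte markers. Of tissues beside the liver, the exocrine pancreas gene Prss2 was at 25.9 FPKM in SC_ConD 2, 9.39 FPKM in SC_ConD 3 and 8.29 FPKM in SF_HPD 5, and at 1.22 FPKM or less elsewhere. The intestinal gene Alpi was at 12.5 FPKM in SC_ConD 2 and at 0.159 FPKM or less elsewhere, with Fabp2 of the same tissue at 20.1 FPKM in SC_ConD 2. SC_ConD 2, the highest library for the 33 genes, was also the highest of 13 for 5 of 5 pancreas, 4 of 7 intestine and 2 of 7 kidney markers. Both SC_ConD 2 and 3 exceeded the rest for 1, 0 and 0 of them. Only 2, 1 and 0 of these pancreas, intestine and kidney markers passed the filter on low values. The FPKM sum was 1010520 in SC_ConD 2 and 363191 in SC_ConD 1. How many of all genes were highest in SC_ConD 2 was not counted, so these counts lack a background. The actin of skeletal muscle, Acta1, was at 1306 FPKM in SC_ConD 3, 230 FPKM in SC_ConD 2 and 6792 FPKM in SF_HPD 4, where Alb was at 21.6 FPKM.

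The 10 adipocyte markers did not share 1 order in SC_ConD: 5 ran SC_ConD 2, 3, 1 as the 33 genes did, and 4 (Plin1, Lep, Lpl and Lipe) were highest in SC_ConD 1. Their summed level, which Cfd and Fabp4 dominate, was 13618, 58371 and 34823 FPKM in SC_ConD 1, 2 and 3, between 14746 and 43426 FPKM in SF_ConD and between 1461 and 34739 FPKM in SF_HPD. The lowest, in SF_HPD 2, came with an Adipoq level of 26.1 FPKM against at least 666 FPKM in the other 12 libraries, and with Krt19 of epithelial cells at 1158 FPKM. That library was also the lowest for Cyp2e1 and the highest sleep-fragmented one for Ttr. Summed B cell and lymph node markers were at 2.26, 11.6 and 1.76 FPKM in SC_ConD 1, 2 and 3 and reached 2144 FPKM in SF_ConD and 906 FPKM in SF_HPD. The part of these other tissues in the levels of the 33 genes was not tested.

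**Figure D4:**
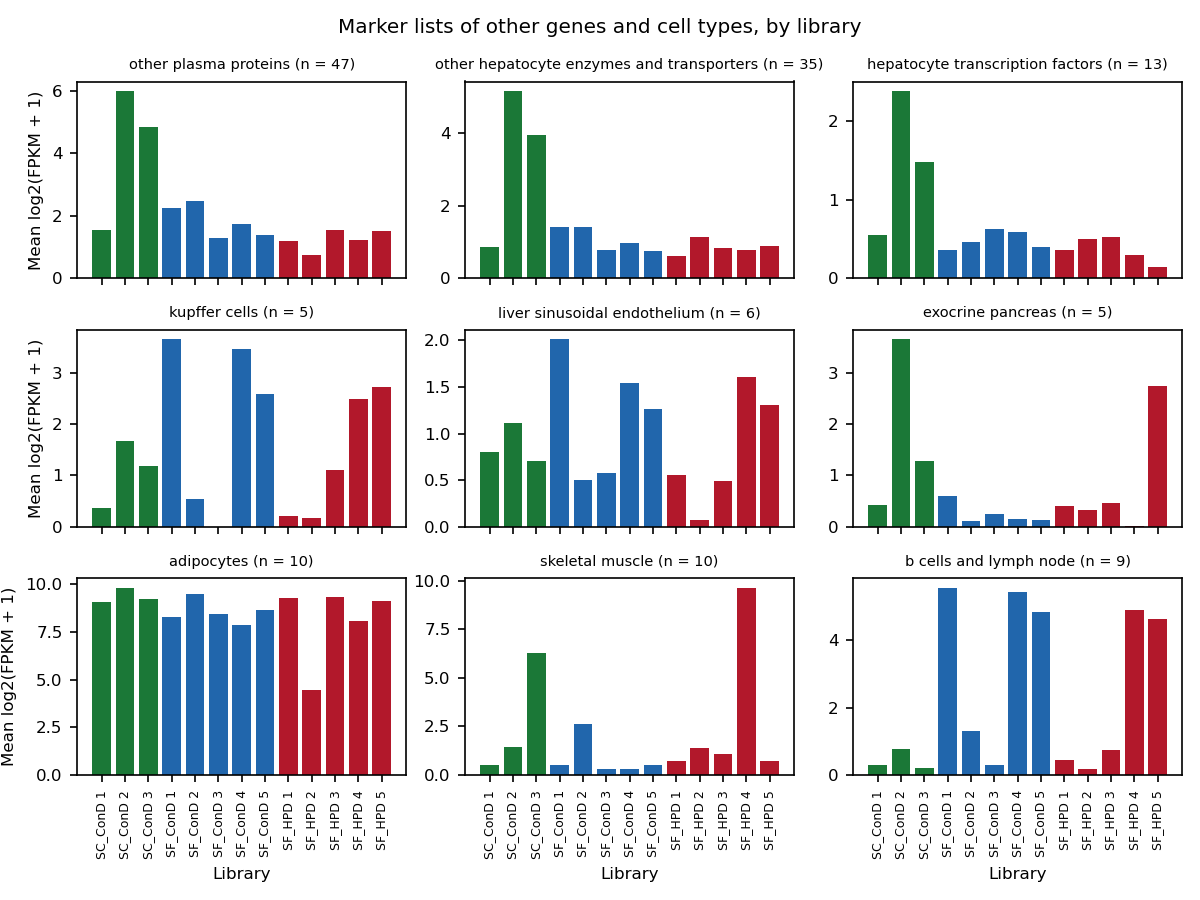
Mean log2(FPKM + 1) of 9 marker lists in each library (green SC_ConD, blue SF_ConD, red SF_HPD), each panel with its own vertical axis from 0 and n giving the genes listed. The 3 hepatocyte lists share the pattern of the 33 genes, with SC_ConD 2 and 3 highest, while the Kupffer, B cell and lymph node and muscle lists peak in sleep-fragmented libraries and the adipocyte list is lowest in SF_HPD 2.

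The genes whose pattern over the 13 libraries was most like the mean of the 33 were chosen among 14390 others by Pearson's r of log2(FPKM + 1). The first 10 were Serpina3k (r = 0.994), Mug1, Mat1a, Ces1c, Pzp, Hrg, Serpina1c, Ces3a, Cxcl1 and Crp (0.991). Of the 10, 6, and of the first 100, 41, stood in the liver lists. Serpina3k, a protease inhibitor gene, was at 7.70, 2152 and 877 FPKM in SC_ConD 1, 2 and 3, and Cxcl1, a neutrophil-attracting chemokine, at 0.316, 11.2 and 8.40 FPKM. Ranked by Spearman's rho, 4 of the 10 stayed among the first 10. In all, 119 genes were at 10 FPKM or more in both SC_ConD 2 and 3 and at least 5 times their highest value elsewhere, of which 28 belong to the 33 and 40 to the other liver lists. Counts of genes in the liver lists depend on lists picked by name. Genes outside them were not sorted into liver genes and others.

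SF_HPD against SF_ConD asked whether the diet changed these genes in mice with fragmented sleep. No gene passed at an adjusted p of 0.05: limma on log2(FPKM + 1) called 0 of 14421 genes (0%) and 0 of 31 members tested. At an unadjusted p under 0.05 it gave 273 genes, and limma-voom on the recovered reads gave 258 and 0 calls. Of the 31 members, 30 had a lower mean log level in SF_HPD, as did 48.1% of all genes. Some of the 31 passed the filter on low values only through SC_ConD 2 and 3. Without those 2 libraries 25 members passed it, of which 24 were lower in SF_HPD. Over the 31 the median log2 fold change was -1.04, from -2.05 (Proc) to 0.08 (Ttr), beside 0.01 over all genes. The members' median SE of 0.97 was near that shift, and members carried by the same libraries are not replicates of it. For 0 of 31 members did the groups separate with SF_HPD lower, as against 0.229% of all genes. At an unadjusted p under 0.05, 1 of 31 members was lower, Proc, beside 1.06% of all genes.

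Proc was at 1.01 FPKM on average in SF_HPD and 6.98 FPKM in SF_ConD, with a log2 fold change of -2.05 (SE 0.57, 95% interval -3.28 to -0.81). Its p in limma was 0.00343 and its Benjamini-Hochberg adjusted p was 0.999994, so it did not pass. Alb differed by -1.13 (SE 1.04), Hpx by -1.50 (SE 1.42), Fga by -1.46 (SE 1.41) and Cyp2e1 by -1.59 (SE 0.99), each with an interval that includes 0. Ttr had no stable direction: its log2 fold change of 0.08 (SE 1.38) became -1.10 without SF_HPD 2, and was negative under 5 other settings as well. By role the median log2 fold change was -1.11 for carriers, -0.97 for apolipoproteins, -1.46 for clotting genes, -0.97 for protease inhibitors, -0.56 for complement and vitronectin and -0.80 for the enzymes. The adipocyte list had a median of -0.70 and the B cell and lymph node list -1.35 in the same comparison.

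**Figure D5:**
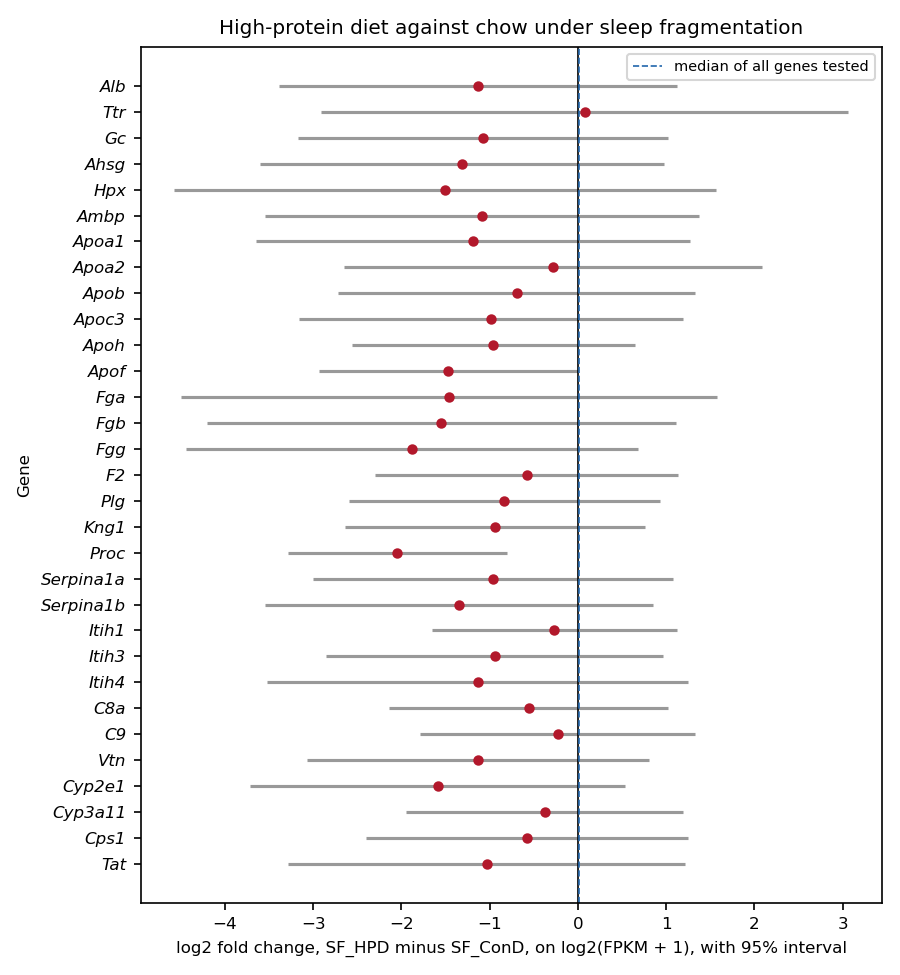
Log2 fold change, SF_HPD minus SF_ConD, on the log2(FPKM + 1) scale for the 31 members tested, with 95% intervals from limma; the dashed line is the median of all genes (0.01). Points lie left of 0 for 30 of 31 genes, and the interval of Proc alone excludes 0.

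Comparisons with SC_ConD were part of how the genes were chosen, and their values are a description. The 2 comparisons share the SC_ConD libraries. SF_ConD against SC_ConD had a median member log2 fold change of -3.49 beside -0.03 over all genes, with 0 of 14421 genes (0%) and 0 of 31 members called (828 genes at an unadjusted p under 0.05, 608 and 0 calls with limma-voom). SF_HPD against SC_ConD had a median of -4.36 beside 0.02, again with 0 genes (0%) and 0 members called (531 genes at an unadjusted p under 0.05, 458 and 0 calls with limma-voom). The groups did not separate for any of the 31 members in the first, where 1.92% of all genes lay lower without overlap, and separated for 16 in the second, where 0.853% did.

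Those values turned on which SC_ConD libraries were used. Without SC_ConD 1, limma called 27 of 31 members lower in SF_ConD (1.36% of 14253 genes called) and 29 of 31 lower in SF_HPD (1.37%). The medians moved to -5.24 and -6.04. The genes were chosen with their levels known to differ between the SC_ConD libraries. Calls made without the low library follow from that choice and carry no test. Alb moved from -4.26 (SE 1.20) to -6.14 (SE 0.91) in SF_ConD against SC_ConD. With SC_ConD 1 as the only SC_ConD library, the median over the 25 members then tested was 0.29 in SF_ConD and -0.76 in SF_HPD, with 6 of the 25 lower and 19 higher in SF_ConD. In SF_ConD against SC_ConD, Fga turned from -4.69 to 0.48 (SE 1.63), while Alb stayed negative at -0.52 (SE 1.20). With that single library, its spread was assumed to be that of the other groups.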

How the data were processed

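Total RNA from inguinal fat of 13 mice was sequenced. The tools listed in the submitters' processing notes were featureCounts 1.5.0-p3, HISAT2 2.0.5 and CASAVA, with the build mm8; coordinates in the table match the GRCm38 annotation for 31 of 33 members, and are given on GRCm38. The authors deposited FPKM per gene, and the sources used here do not say how the depth divisor was set. Values multiplied by gene length fell on whole steps (100% within 0.05), which gave the reads per library; the implied divisor was 0.479 to 1.23 times that total, so FPKM levels differ in scale between libraries.

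Tests used the 14421 of 54532 genes (31 of 33 members) that reached an FPKM of 1 in 3 or more libraries. Group means of log2(FPKM + 1) were fitted over all 13 libraries with limma 3.58.1 under R 4.3.3 (eBayes with trend and robust, two-sided, Benjamini-Hochberg over all genes kept, threshold 0.05), and its steps were tested on simulated data. A fold change on this scale understates that of low genes. Shares, ratios and correlations were computed in Python 3.11.15 with pandas 2.3.3 and SciPy 1.17.1. The members, lists and tests were chosen with earlier results of these data known. All members are named, with most detail for the 2 highest and the least uneven of each role; of the other lists, genes with the highest means; and the 10 genes most alike in pattern. Reads of Apoh and Prkca, Plg and Slc22a3, Serpinc1 and Zbtb37, Ttr and Gm16090, and C8a and Gm17662, which overlap on opposite strands, may be shared.

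No pair of libraries agreed within sampling noise (lowest chi-square per degree of freedom 71.0). Same-numbered libraries of SC_ConD and SF_HPD deviated together (r = 0.711, 0.333 and 0.191 across genes, each over 0.1). In that pair of groups the same number gave the highest r for number 1 alone. For SC_ConD and SF_ConD the values were -0.558, 0.190 and -0.316. The main tests used no pairing, and a replicate block was run as an alternative. The labels give no source for a pairing. For SF_HPD and SF_ConD the 5 values ran from -0.670 to 0.405, and the same number gave the highest r for numbers 4 (0.325) and 5 (0.405). Alternatives were the pseudocount (0.1), filters, TPM and median-of-ratios scaling, eBayes without trend or robust, limma-voom on recovered reads, a replicate block and leaving out libraries.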

Additional observations from a re-analysis of the deposited data

Results flagged for a closer look

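Within groups of 5 libraries, 70 sets of values were checked for a library standing apart by Dixon's ratio (gap over range above 0.71). Chance exceeds that in about 1 of 20. The ratio was taken on log2(FPKM + 1) for genes and on percent for shares of reads. Of the 70 sets, 3 exceeded it, no more than that rate. Proc in SF_ConD was low in SF_ConD 5, at 1.94 FPKM, while the other 4 libraries lay between 6.75 and 9.34 FPKM (gap over range 0.77 on the log scale). The share of reads on the 33 genes was high in SF_ConD 2, at 1.25%, against 0.655% to 0.729% in the others (0.876). Cyp2e1 held 183768 of the 202611 reads on the 33 genes there. The share without Cyp2e1 was checked too and did not stand apart. C8a in SF_HPD was high in SF_HPD 4, at 0.191 FPKM, and at 0.0258 FPKM or less in the other 4 (0.855).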

How the results depend on the processing

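Of 536 alternative values, 508 were counted as unchanged. For single genes this meant the same direction and side of the threshold, and for counts and ratios within 1.5 times. Member medians had to keep their direction and move by less than 1.53 log2 units, the pooled SD of the members' mean log level within groups. No gene passed in the main tests, so keeping the side of the threshold was easily met. Ttr in SF_HPD against SF_ConD (0.08) turned to -0.22 with a pseudocount of 0.1, -0.014 after TPM rescaling, -0.57 with limma-voom and -1.10 without SF_HPD 2, a setting chosen again after seeing the data; leaving out single libraries gave -1.10 to 0.63, with -0.09 without SF_ConD 3 and -0.36 without SF_ConD 5. Leaving out single libraries gave 0 to 1 called genes for SF_HPD against SF_ConD, 0 to 194 for SF_ConD against SC_ConD and 0 to 195 for SF_HPD against SC_ConD. Members called ran from 0 to 0, 0 to 27 and 0 to 29, and member medians from -1.26 to -0.74, -5.24 to -2.39 and -6.04 to -3.33. Without SC_ConD 1, Alb and Fga passed in SF_ConD against SC_ConD (-6.14 and -7.27) and in SF_HPD against SC_ConD (-7.27 and -8.73). That follows from how the genes were chosen and carries no test. Without SF_HPD 5 the 1 gene called, in SF_HPD against either chow group, was Gm22478, no member, at 0 FPKM in SF_HPD 5. With SC_ConD 1 alone, SF_ConD against SC_ConD turned to a median of 0.29, Fga to 0.48 and Cyp2e1 to 0.92, and the median of SF_HPD against SC_ConD moved to -0.76; here fewer samples and 25 members were tested. TPM rescaling moved the ratio of highest to lowest SC_ConD library to 40.7 and the median of all genes to 0.15 in SF_ConD against SC_ConD and 0.25 in SF_HPD against SC_ConD. As a share of the FPKM sum the members took 0.574%, 2.79% and 2.06% in SC_ConD 1, 2 and 3. With Spearman's rho 4 of the 10 most alike genes remained. The cause of these changes was not tested.

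With the replicate block, 0 genes and 0 members were called in each comparison, so the block changed no call. The member medians were -1.04 (SF_HPD against SF_ConD), -3.29 (SF_ConD against SC_ConD) and -4.22 (SF_HPD against SC_ConD). Of members at 0 in a library, 3 reads are the limit that a count of 0 allows, so levels of low members in the sleep-fragmented libraries rest on few reads.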
